A study of Homo sapiens with 6 samples.

Results

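The pericentromeric flanks are the 5 Mb of sequence on each side of a centromere, and the regions described here are the peaks whose midpoint fell in them. They were chosen by the peak positions themselves: on each autosome the 5-Mb window that held the most sequence under siNeg CENP-A replicate 1 peaks stood for the centromere, and a peak that touched a window was not counted as a flank peak. Of the 33656 peaks in the 6 deposited lists, 1676 were flank peaks. They comprised 44 and 27 in siNeg CENP-A replicates 1 and 3, 531 and 461 in siDNAJC9 CENP-A replicates 1 and 3, 221 in the siNeg IgG list and 392 in the siDNAJC9 IgG list. The flank peaks made up 3.33% and 3.19% of the siNeg CENP-A lists, 4.65% and 5.11% of the siDNAJC9 CENP-A lists, and 5.32% and 5.68% of the siNeg and siDNAJC9 IgG lists. These shares are of whole lists, which differ in how many peaks touched a window. In the siNeg CENP-A lists 824 of 1321 and 671 of 846 did, against 558 of 11411 and 493 of 9018 with siDNAJC9. The shares therefore do not compare the flanks with other sequence outside the windows.

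Satellite stretches of 14, 27 and 14 Mb near the windows of chromosomes 1, 9 and 16 were left out, as were the short arms of chromosomes 13, 14, 15, 21 and 22. This left 38 flanks, 17 on short arms and 21 on long arms, with 181.683 Mb in all, or 6.80% of the autosomal sequence outside the windows that was kept. In 36 of them at least 2.5 Mb remained. The long-arm flanks of chromosomes 1 and 9 kept 1.452 and 0.231 Mb, and that of chromosome 16 was left out whole. Between 1 and 18 peaks per list fell in the left-out flank stretches, and 0 peaks crossed a window edge. Flanks are named by chromosome and arm, so that 4p is the flank on the short arm of chromosome 4.

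CUT&RUN, in which an antibody directs a nuclease to release the DNA around its target, had been carried out with a CENP-A antibody or with mouse IgG. The cells were hTERT-RPE1-Tet-GFP-CENP-A, immortalized human retinal pigment epithelial cells that carry a GFP-tagged CENP-A under a DOX-inducible promoter, and this CENP-A was induced in all groups. They had received a negative control siRNA (siNeg) or an siRNA against DNAJC9, a chaperone of histones H3 and H4, for 48 h, and then 1 µg/ml DOX for another 48 h in both groups. Each siRNA had 2 CENP-A libraries, which the submitters call biological repeats and number 1 and 3, and 1 IgG library with the number 2. The lists give positions on T2T-CHM13v2.0 in whole kb, with no height or read count. The depth of a library could therefore not be read from them, a region was either called or not, and DNAJC9 itself was not measured in these libraries.

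CENP-A replaces H3 in the nucleosomes of the active centromere, where it is the platform on which the kinetochore is built. The sequence beside it, the pericentromere, normally carries H3 nucleosomes in heterochromatin rich in repeats and holds sister chromatids together until anaphase. When CENP-A is in excess it can be deposited outside the centromere, and the flanks are the chromatin into which a centromeric domain would first extend. Peaks inside the windows covered 12048 kb in siNeg CENP-A replicate 1, which placed them, 9466 kb in siNeg CENP-A replicate 3, 6173 and 5264 kb in the siDNAJC9 CENP-A replicates, and 227 and 476 kb in the siNeg and siDNAJC9 IgG lists. In the 3 CENP-A libraries that the rule did not use, the windows thus held far more sequence under peaks than in the IgG lists, but nothing in the rule makes their edges the ends of the centromeres.

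Flank CENP-A peaks were many times more numerous with siDNAJC9 than with siNeg. Their length came to 4105 and 3266 kb in siDNAJC9 replicates 1 and 3 and to 273 and 186 kb in the siNeg pair, and the groups did not overlap. The mean flank length under peaks of siDNAJC9 was 3685.5 ± 593 kb (SD, n = 2), or 16.1-fold that of siNeg, 229.5 ± 61.5 kb (SD, n = 2), with a range of 12.0 to 22.1 over pairs of libraries. In number, the mean was 496 ± 49.5 peaks with siDNAJC9 and 35.5 ± 12.0 with siNeg (SD, n = 2 each), or 14.0-fold with a range of 10.5 to 19.7 over pairs. Because siNeg replicate 1 placed the windows, the test was made against siNeg replicate 3 alone. It gave 19.8-fold for length and 18.4-fold for number (log2 4.31 and 4.20, exact two-sided permutation p = 0.667 for both, doubling the smaller tail, the smallest that 2 libraries against 1 then give). The design therefore cannot pass a threshold of 0.05 over libraries. In the IgG lists, flank peaks covered 1222 kb with siNeg and 2327 kb with siDNAJC9, 1.90-fold more, with 1 library each and no test. The length under siDNAJC9 CENP-A flank peaks was 1.76 and 1.40 times that under siDNAJC9 IgG flank peaks in replicates 1 and 3.

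With siDNAJC9, CENP-A peaks covered the flanks less densely than the rest of the autosomes. Coverage was 22.6 and 18.0 kb per Mb of flank in siDNAJC9 replicates 1 and 3, against 30.6 and 22.5 kb per Mb of the rest of the autosomes, which is all kept sequence more than 5 Mb from a window. The ratio of flank to rest was thus 0.738 and 0.800. In siNeg replicates 1 and 3 the order was the opposite, with 1.50 and 1.02 kb per Mb of flank against 0.882 and 0.258 kb per Mb of the rest, ratios of 1.70 and 3.97. The IgG lists had 6.73 and 12.8 kb per Mb of flank with siNeg and siDNAJC9, and ratios of 0.766 and 0.842. Both IgG ratios were below 1, like those of the siDNAJC9 CENP-A libraries, and what part a background of this kind has in those libraries was not tested. On the log2 scale the ratio was lower by 2.37 with siDNAJC9 than in siNeg replicate 3 (exact two-sided permutation p = 0.667, the smallest possible). Against siNeg replicate 1 alone, the library that placed the windows, it was lower by 1.15. With the siDNAJC9 mean over the siNeg mean, the covered length was 16.1-fold higher in the flanks and 46.6-fold higher in the rest, where the fold ran from 25.5 to 119 over pairs of libraries and was 103 against siNeg replicate 3.

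The siNeg ratios rested on few peaks and on the window. With windows of 10 Mb they came to 0.902 and 0.878, while the siDNAJC9 ratios stayed at 0.748 and 0.807, and the log2 difference from siNeg replicate 3 shrank to -0.18. The IgG ratios then came to 0.947 with siNeg and 1.03 with siDNAJC9, so that the siDNAJC9 IgG list no longer lay below 1. Without 4p, an alternative chosen after seeing the data, the siNeg ratios were 1.32 and 2.06 and the siDNAJC9 ratios 0.726 and 0.773, a log2 difference of -1.46. Without the innermost 1 Mb of each flank, also chosen after seeing the data, they were 1.35 and 1.69 for siNeg and 0.816 and 0.894 for siDNAJC9, a log2 difference of -0.99. Under each of these settings the siDNAJC9 libraries stayed below 1 and below both siNeg libraries.

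**Figure D1:**
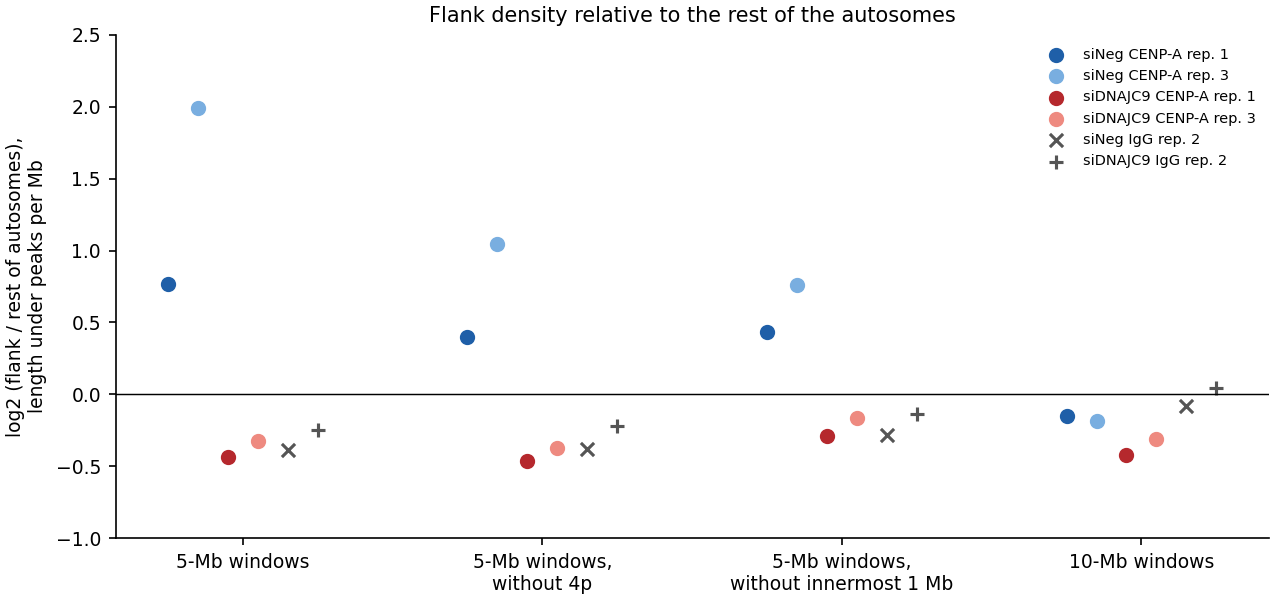
The log2 ratio of flank density to that of the rest of the autosomes (length under peaks per Mb) is plotted for each of the 6 libraries under 4 settings, with 1 point per library and a line at 0 for equal density. Both siDNAJC9 CENP-A points lie below 0 under every setting shown, while the siNeg CENP-A points fall from 0.77 and 1.99 with 5-Mb windows to -0.15 and -0.19 with 10-Mb windows.

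By distance, the first megabase beside the window was the sparsest stretch of the flank with siDNAJC9. The edge was loosely fixed on some chromosomes, since windows tied for the greatest length and the middle one was taken. Tied starts, in steps of 1 kb, numbered from 15 on chromosome 14 to 2988 on chromosome 15. Distances from the edge would shift with another of the tied windows. The siDNAJC9 libraries had 13.3 and 9.78 kb per Mb there, against between 20.6 and 27.1 kb per Mb in replicate 1 and between 16.3 and 22.9 kb per Mb in replicate 3 in each of the next 4 megabases. The first megabase thus held 0.532 and 0.486 times the density of the other 4, and 0.434 and 0.435 times that of the rest of the autosomes. The siNeg CENP-A libraries had 2.71 and 3.30 kb per Mb in the first megabase against 1.19 and 0.436 in the other 4, but 4p alone gave 63 of the 101 kb in that megabase in replicate 1 and 84 of the 123 kb in replicate 3. Without 4p they had 1.05 and 1.08 kb per Mb there against 1.19 and 0.392 in the other 4, so the order turned in replicate 1. In 29 and 33 of the 36 flanks with at least 2.5 Mb, siNeg replicates 1 and 3 had no peak in the first megabase. These lists were sparse elsewhere too, with 0.159 and 0.0442 peaks per Mb of the rest of the autosomes. The share of all 1-Mb blocks without a siNeg CENP-A peak was not counted, so these counts single out nothing about the flanks. The IgG lists were also sparsest in the first megabase. The siNeg IgG list had 4.78 kb per Mb there and the siDNAJC9 IgG list 8.81, which is 0.662 and 0.637 times their density in the other 4. With siDNAJC9, CENP-A and IgG peaks were thus both thinned beside the window, and how far the IgG background sets the CENP-A profile was not tested. Averaged over the inner 2 Mb and the outer 2 Mb (3 to 5 Mb from the edge), the siDNAJC9 log2 ratio of inner to outer density was only -0.25 and -0.10, since the second megabase was dense. In siNeg it was 0.87 and 2.56, which fell to 0.03 and 1.20 without 4p, and in the siNeg and siDNAJC9 IgG lists it was -0.69 and -0.51. No test was made of the profile, with 2 CENP-A libraries per siRNA.

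**Figure D2:**
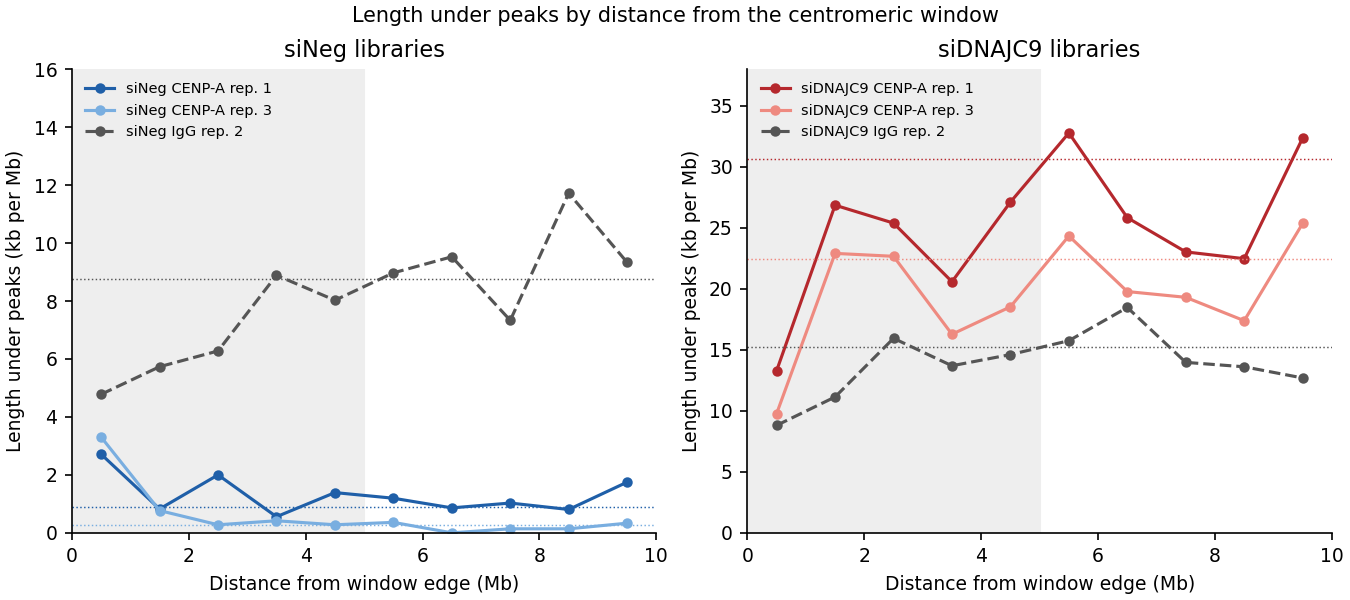
Length under peaks (kb per Mb) is plotted against distance from the window edge in classes of 1 Mb, for the siNeg libraries on the left and the siDNAJC9 libraries on the right, on different vertical scales. The shaded 0 to 5 Mb are the flanks and the dotted lines give each library's density in the rest of the autosomes. The first class is the lowest of the flank in both siDNAJC9 CENP-A libraries (13.3 and 9.78 kb per Mb) and in both IgG lists. It is the highest in both siNeg CENP-A libraries only with 4p included, since without it replicate 1 has 1.05 kb per Mb there and 2.06 in the class from 2 to 3 Mb.

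The thin first megabase was shared by most flanks. Of the 36 flanks with at least 2.5 Mb, the first megabase lay below the mean of the next 4 in 29 flanks in siDNAJC9 replicate 1 and in 31 in replicate 3. Over all 1-Mb blocks with 4 further blocks outward, this held for 57.4% and 55.7%. Each IgG list had 25 such flanks, beside 54.6% of blocks with siNeg and 55.5% with siDNAJC9. In siNeg CENP-A replicates 1 and 3 there were 17 and 8 such flanks, beside 37.5% and 15.0% of blocks. In 12 of the 36 it held no peak of either siDNAJC9 CENP-A library: 2p, 7p, 7q, 10q, 11p, 11q, 15q, 16p, 17p, 19p, 19q and 20q. Over all 1-Mb blocks of the autosomes outside the windows, 12.6% had no peak of either library. The siDNAJC9 IgG list was also empty in 12 of the 36 first megabases (20.7% of all blocks), and the siNeg IgG list in 18 (24.4% of all blocks). In replicate 1 the farthest nearest peak was on 15q, 3928 kb from the window, where replicate 3 had one at 1236 kb. The window of chromosome 15 had 2988 tied starts, so these distances depend on which was taken. In replicate 3 it was on 19p, at 3948 kb, where replicate 1 had one at 1168 kb, and 9p had no peak of replicate 3. On 2p the nearest peak was the same in both siDNAJC9 libraries, 2897 kb from the window. On 11p it lay 2289 and 2296 kb away. The other end was 12p, which had the densest first megabase in both libraries, with 89 and 56 kb, and a peak that began at the window edge in replicate 1 and another 31 kb away in replicate 3. Over flanks with a peak, the median distance to the nearest was 677 and 852 kb.

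Nearly every flank had more sequence under CENP-A peaks with siDNAJC9. Peaks were present in 36 of the 38 flanks in each siDNAJC9 CENP-A library, against 23 and 13 in siNeg replicates 1 and 3. The siNeg and siDNAJC9 IgG lists had a peak in 36 and 37 of them, so presence alone does not set CENP-A apart from IgG. How often other stretches of 5 Mb held a peak was not counted. The median flank had 15.2 and 13.5 kb per Mb in the siDNAJC9 CENP-A libraries, and 1.0 and 0 in those of siNeg. In the siNeg and siDNAJC9 IgG lists it had 6.3 and 10.6 kb per Mb. Both siDNAJC9 libraries exceeded both siNeg libraries in 35 of the 36 larger flanks, where the exception was 9p, and in 0 of the 2 shortened ones. Over all 531 bins of 5 Mb laid outward from the window edges, of which the flanks are the first, this held in 98.3%. Above siNeg replicate 3 alone, both siDNAJC9 libraries lay in 35 of the 36 flanks and in 98.7% of all bins, so the flanks did not stand out. A limma fit of log2(kb per 5 Mb + 1) was made with the siDNAJC9 pair against siNeg replicate 3. In it, 34 of the 36 flank bins were higher with siDNAJC9 at a Benjamini-Hochberg adjusted p under 0.05, beside 98.1% of all bins. The number of bins called lower was 0, in the flanks and among all bins (0%), and was also 0 at an unadjusted p under 0.05. The median log2 fold change was 5.43 over the flank bins and 6.52 over all bins. With 5 kb instead of 1 kb added before the log, these medians were 3.57 and 4.36. Their size thus depends on the added constant, since siNeg replicate 3 had no peak in most flanks. After scaling every library to an equal total outside the windows, 24 flank bins were higher and 11 lower, and among all bins 422 were higher and 94 lower.

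Those calls depend on how the spread is estimated, and the calls after scaling also on where the sparse siNeg list had a peak. Scaling leaves a bin of 0 kb at 0 and enlarges a single peak in that list. The calls after scaling are therefore not depth-corrected changes. All bins come from the same libraries, so they are not independent, and the lone siNeg library was assumed to vary like the siDNAJC9 pair. With all 4 CENP-A libraries, 27 flank bins and 456 of all bins were called higher. This fit and those that follow draw on siNeg replicate 1, whose own peaks placed the windows. With all 4 except siDNAJC9 replicate 1, the numbers were 11 and 262, and without siDNAJC9 replicate 3 they were 13 and 263. In the fit of the siDNAJC9 pair against siNeg replicate 3 alone, the flanks that did not pass were 4p and 9p. On 4p, peaks covered 68 and 92 kb in the siNeg replicates and 179 and 197 kb in the siDNAJC9 replicates (log2 difference 1.02 with a standard error of 0.50, limma adjusted p = 0.0869). On 9p they covered 0 kb in both siNeg replicates and 10 and 0 kb in the siDNAJC9 replicates (log2 difference 1.73 with a standard error of 1.27, limma adjusted p = 0.221).

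The flanks differed far more from each other than the siDNAJC9 replicates did. Between flanks the density ran from 2.0 to 78.0 kb per Mb in siDNAJC9 replicate 1 and from 0 to 62.8 kb per Mb in replicate 3, leaving out the 2 shortened flanks. Over the 36 flanks the replicates ranked them alike, with a Spearman's rho of 0.92 and a Pearson's r of 0.92, given as a description since flanks of the same library share its depth and control. Replicate 1 lay above replicate 3 in 26 of the 36 and below it in 10. The rho with the siDNAJC9 IgG list over the same flanks was -0.27 for replicate 1 and -0.25 for replicate 3.

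The densest flank on average was 10p (chromosome 10, 32293001 to 37293000), where siDNAJC9 replicates 1 and 3 had 349 and 314 kb under peaks, siNeg 11 and 0 kb, and there were 46 kb in the siDNAJC9 IgG list. Its mean of 66.3 ± 4.95 kb per Mb (SD, n = 2) compares with 27.8 and 23.2 kb per Mb in the rest of the same arm in replicates 1 and 3. On 6p (chromosome 6, 53174001 to 58174000), peaks covered 390 and 245 kb with siDNAJC9, 7 and 0 kb with siNeg and 22 kb in the siDNAJC9 IgG list, a mean of 63.5 ± 20.5 kb per Mb with siDNAJC9 (SD, n = 2). Both flanks lay well above all siNeg and IgG values.

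On 5q (chromosome 5, 51302001 to 56302000), siDNAJC9 peaks covered 307 and 226 kb, siNeg peaks 17 and 5 kb and siDNAJC9 IgG peaks 33 kb. On 12p (chromosome 12, 27367001 to 32367000), the values were 292 and 182 kb with siDNAJC9, 10 and 7 kb with siNeg and 55 kb in the siDNAJC9 IgG list. On 4q (chromosome 4, 55254001 to 60254000), they were 266 and 133 kb, 5 and 5 kb, and 23 kb. The means of these flanks were 53.3 ± 11.5, 47.4 ± 15.6 and 39.9 ± 18.8 kb per Mb (SD, n = 2), so that neighbours in this order did not differ beyond the spread of the libraries. These 5 flanks together held 39.1% and 33.7% of all flank length under peaks in siDNAJC9 replicates 1 and 3.

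At the sparse end stood 12q, 19p, 16p, 19q and 9p, with siDNAJC9 means of 4.1, 3.8, 3.6, 2.1 and 1.0 kb per Mb. On 12q (chromosome 12, 37367001 to 42367000), peaks covered 19 and 22 kb with siDNAJC9 and 5 and 0 kb with siNeg. On 19p (chromosome 19, 20418001 to 25418000), they covered 23 and 15 kb with siDNAJC9 and 5 and 0 kb with siNeg. On 16p (chromosome 16, 29285001 to 34285000), they covered 19 and 17 kb with siDNAJC9 and 0 kb in both siNeg libraries. On 19q (chromosome 19, 30418001 to 35418000), the values were 15 and 6 kb, and 5 and 0 kb. On 9p (chromosome 9, 38769001 to 43769000), the siDNAJC9 libraries had 10 and 0 kb. The siDNAJC9 IgG list did not share this sparseness throughout: it covered 179 kb on 19q, 118 kb on 16p and 68 kb on 19p, but 23 kb on 12q and 5 kb on 9p.

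**Figure D3:**
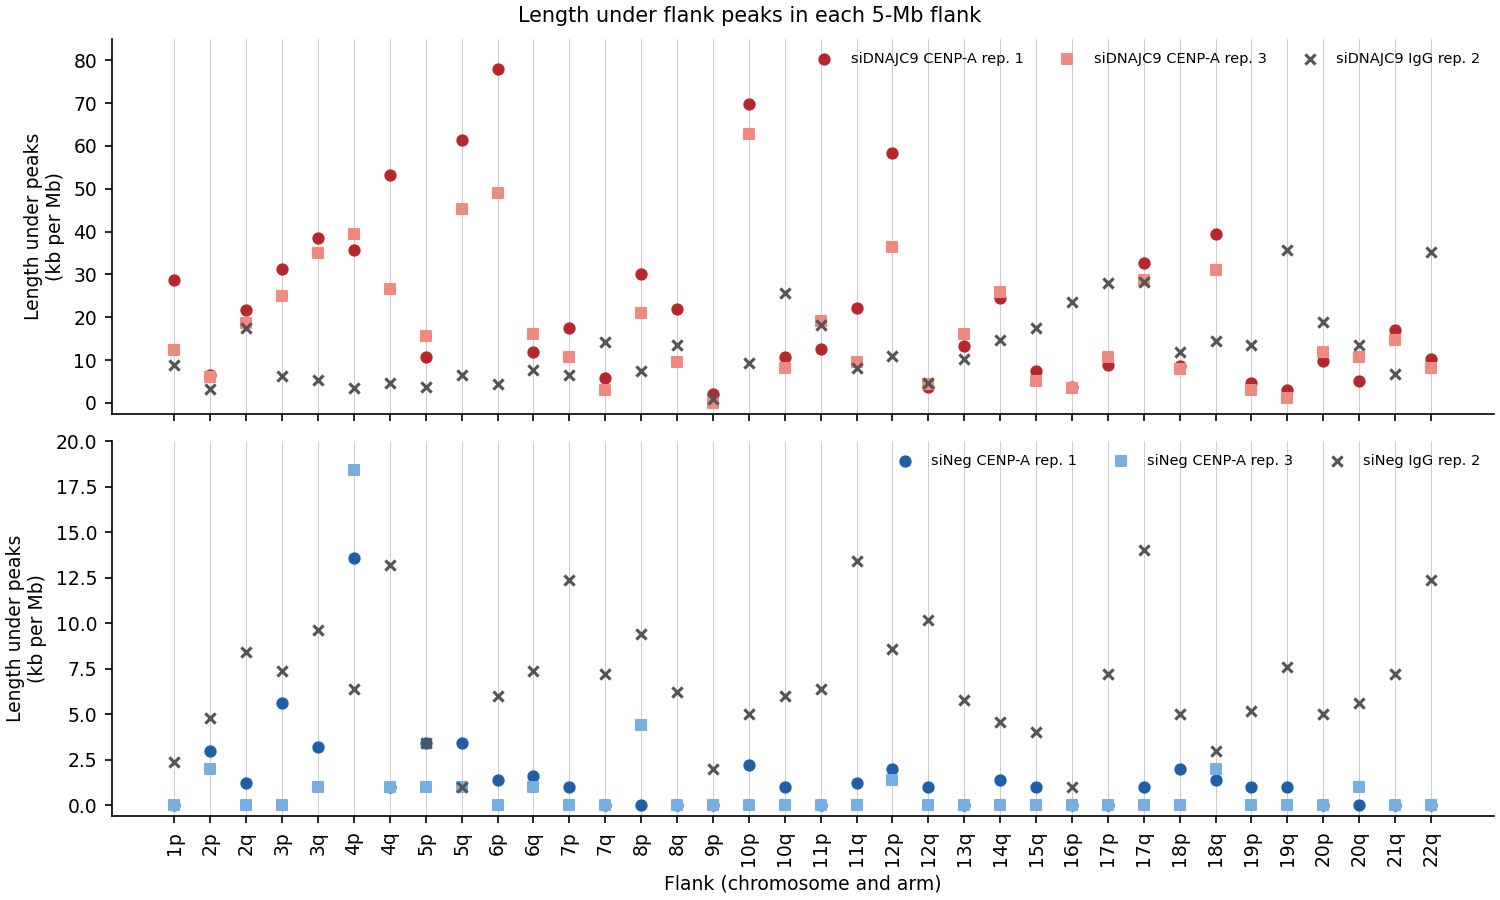
Length under peaks (kb per Mb) is shown for each of the 36 flanks with at least 2.5 Mb, 1 point per library, with the siDNAJC9 libraries above and the siNeg libraries below on their own scale. The siDNAJC9 CENP-A points peak on 10p and 6p, the siNeg CENP-A points are highest on 4p (13.6 and 18.4 kb per Mb), and the siDNAJC9 IgG crosses are highest on 19q (35.8 kb per Mb).

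**Figure D4:**
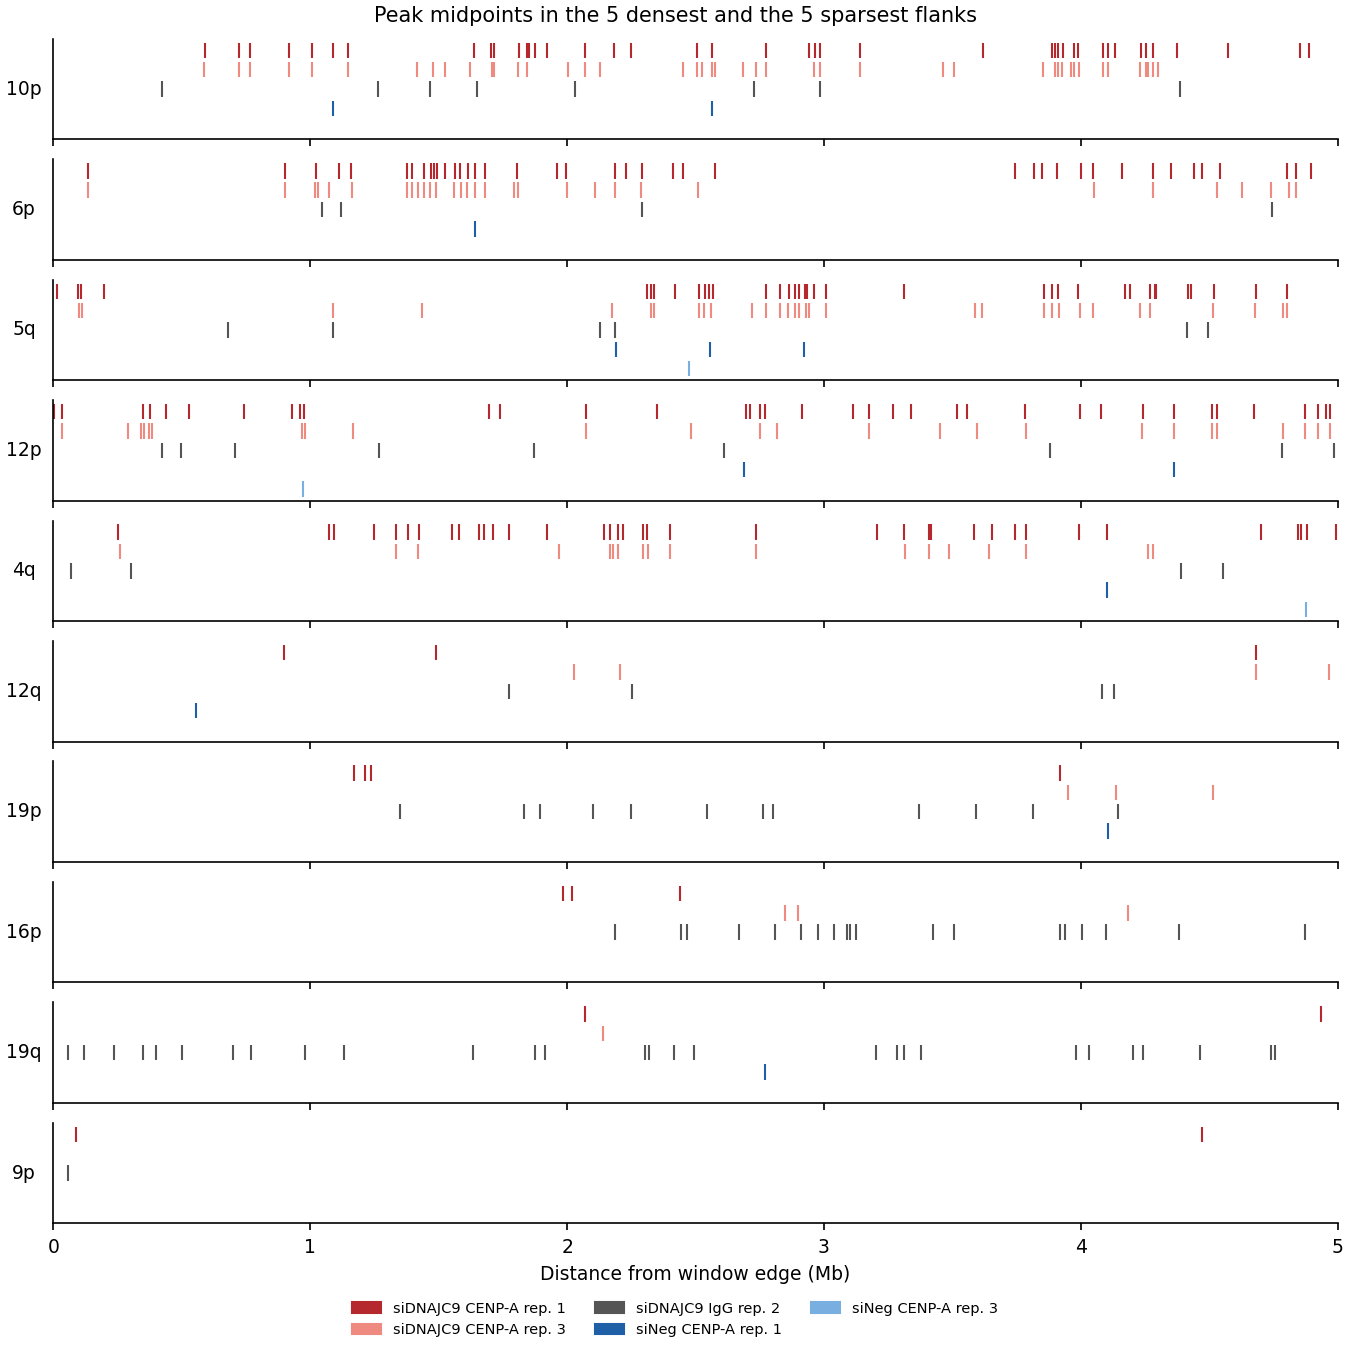
Peak midpoints along the 5 densest flanks (top) and the 5 sparsest flanks (bottom) are drawn by distance from the window edge in Mb, with a row of ticks for each of 5 libraries. Ticks of both siDNAJC9 CENP-A libraries often stand at the same place on 10p and 6p, and on 16p and 19q the siDNAJC9 IgG ticks outnumber the siDNAJC9 CENP-A ticks.

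IgG peaks outdid CENP-A peaks in part of the flanks. The siDNAJC9 IgG list covered more than both siDNAJC9 CENP-A libraries in 12 of the 36 flanks, beside 24.7% of all 5-Mb bins: 7q, 10q, 12q, 15q, 16p, 17p, 18p, 19p, 19q, 20p, 20q and 22q. The largest gap was on 19q, and 22q (176 kb of IgG peaks against 51 and 41 kb) followed the same pattern. In 21 of all 38 flanks the IgG list lay below both siDNAJC9 CENP-A libraries. With siNeg, the IgG list exceeded both CENP-A libraries in 33 of the 36 larger flanks, beside 98.5% of all 5-Mb bins. The IgG lists had been called in the same manner as the CENP-A lists, against a further IgG library of the same siRNA that was not analysed here.

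Compared with its own chromosome arm, a flank was more often sparse than dense. In both siDNAJC9 CENP-A libraries, 24 of the 36 flanks lay below the rest of their arm and 9 above it, and 3 were split. Over all 5-Mb bins, 49.0% lay below the rest of their arm and 39.2% above it in both libraries. Those above included 10p, 6p, 5q and 12p, and also 18q (39.4 and 31.0 kb per Mb, against 19.8 and 14.4 in the rest of the arm) and 17q (32.6 and 28.6, against 21.8 and 14.1). The dense flank 4q was among those split, with 53.2 and 26.6 kb per Mb against 38.7 and 26.8 in the rest of its arm. A wide deficit was seen on 10q, with 10.8 and 8.2 kb per Mb in the flank against 53.6 and 43.2 in the rest of that arm.

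The sides of a centromere often differed. Other pairs of 5-Mb bins were not compared in this way, so whether such differences are particular to the flanks was not tested. On 14 chromosomes both flanks could be compared, and in both siDNAJC9 CENP-A libraries the short-arm flank was the denser on 7 and the long-arm flank on 5, while the libraries disagreed on chromosomes 4 and 11. On 8 chromosomes the denser side had at least 2 times the density of the other in both libraries, and on 2 at least 4 times. These were chromosome 12, where 12p exceeded 12q by 15.4 and 8.27 times in replicates 1 and 3, and chromosome 10, where 10p exceeded 10q by 6.46 and 7.66 times. The short-arm side was also the denser on chromosome 6 (6.61 and 3.06 times) and chromosome 7 (3.03 and 3.60 times). The long-arm side was the denser on chromosomes 5 (5.69 and 2.90 times), 18 (4.58 and 3.97 times), 17 (3.70 and 2.65 times) and 2 (3.41 and 3.10 times). There was thus no common side: over all larger flanks, short arms had 24.5 and 19.7 kb per Mb and long arms 21.3 and 16.7 kb per Mb. In the siDNAJC9 IgG list the order was the opposite, with 10.5 kb per Mb on short arms and 15.0 on long arms.

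**Figure D5:**
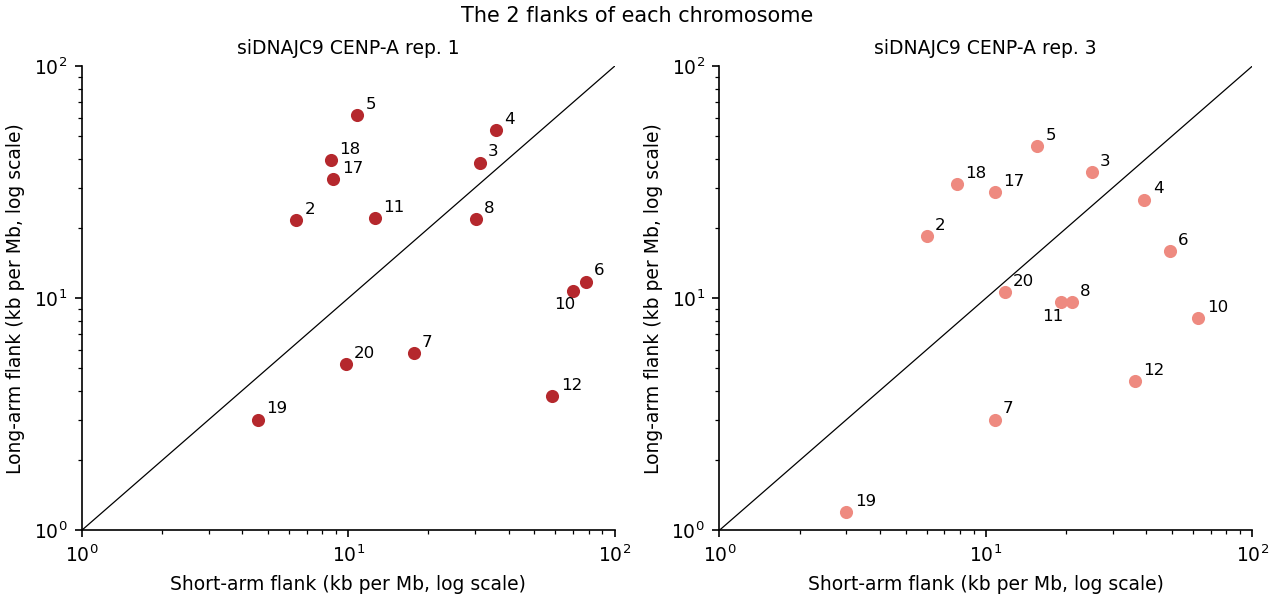
For the 14 chromosomes with both flanks, the density of the long-arm flank is plotted against that of the short-arm flank (kb per Mb, both axes logarithmic), with 1 panel per siDNAJC9 CENP-A library, chromosome numbers beside the points and a diagonal of equal density. Chromosomes 6, 10 and 12 lie far below the diagonal in both panels, and chromosomes 2, 5, 17 and 18 far above it.

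Flank peaks of the siDNAJC9 libraries recurred at the same places about as often as peaks elsewhere. Of the flank peaks of replicate 1, 234 of 531 (44.1%, 95% Wilson interval 39.9 to 48.3) shared 1 bp or more with replicate 3, and of those of replicate 3, 238 of 461 (51.6%, 47.1 to 56.2) did so with replicate 1. In the rest of the autosomes these shares were 42.2% and 54.5%, both within the intervals for the flanks. The intervals cover counting error only. Peaks of the siDNAJC9 IgG list were overlapped by 25 flank peaks of each siDNAJC9 CENP-A library, which is 4.71% (3.21 to 6.86) and 5.42% (3.70 to 7.88), beside 4.76% and 4.86% in the rest. Between the IgG lists of the siRNAs, 5 of the 221 siNeg flank peaks (2.26%) and 5 of the 392 siDNAJC9 flank peaks (1.28%) overlapped, beside 2.76% and 1.67% in the rest.

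The peaks themselves had similar widths in the flanks and elsewhere. The median width was 7 and 6 kb in siDNAJC9 replicates 1 and 3, in the flanks and in the rest alike. Peaks of at least 10 kb made up 15.4% and 9.54% of flank peaks, beside 13.4% and 9.23% in the rest. The longest flank peaks spanned 40 and 28 kb, and the longest in the rest 55 and 47 kb.

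Intersecting both siDNAJC9 CENP-A lists left 240 flank regions under a peak of each, with 1665 kb in all and a median length of 6 kb, on 30 flanks. From the window outward, the 5 megabases held 27, 58, 61, 43 and 51 of them. The flank with the most was 10p, with 28, followed by 5q with 23, 6p with 21, 12p with 17, 18q with 15 and 4p with 13. Of the 240, 9 shared sequence with a siDNAJC9 IgG peak and 14 with a siNeg CENP-A peak. The longest, on 3q from 101579001 to 101606000 of chromosome 3, spanned 27 kb near the outer limit of its flank, and siNeg replicate 1 had 6 kb of peak inside it. The next, on 6p from 56553001 to 56576000 of chromosome 6, spanned 23 kb with no siNeg or IgG peak. These were the only regions of at least 20 kb.

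The next in length, at most 1 per flank, lay on 10p, 21q and 3p. That on 10p, from 36518001 to 36536000 of chromosome 10, spanned 18 kb and held no siNeg or IgG peak. That on 21q, from 15806001 to 15823000 of chromosome 21, spanned 17 kb, and 5 kb of it lay under a siDNAJC9 IgG peak. That on 3p, from 87055001 to 87071000 of chromosome 3, spanned 16 kb, and 7 kb of it lay under a peak of siNeg replicate 1.

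In control cells, recurrent flank CENP-A was almost confined to the short arm of chromosome 4. The siNeg replicates shared 8 flank regions with 73 kb in all, of which 7 lay on 4p between 88 and 511 kb from the window edge. The flank 4p held 8 of the 44 flank peaks of siNeg replicate 1 and 11 of the 27 of replicate 3, and 24.9% and 49.5% of their flank length under peaks. Within 1 Mb of a window lay 14 of the 44 and 16 of the 27. The window edges were set by a fixed width, and whether the 4p regions belong to the centromeric domain itself was not tested.

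The 4p regions began with one of 9 kb from 50157001 to 50166000 of chromosome 4, of which siDNAJC9 replicate 1 covered 7 kb and replicate 3 none. Each of the other 6 was covered either by both siDNAJC9 libraries or by neither. Those from 49935001 to 49945000, from 49873001 to 49883000 and from 49861001 to 49870000 were covered by both siDNAJC9 libraries over 9, 10 and 9 kb. Those from 49954001 to 49963000, from 49779001 to 49786000 and from 49734001 to 49743000 had 0 kb of siDNAJC9 peaks, and no IgG peak lay in any of the 7.

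The remaining region shared by the siNeg replicates was on 2p, from 87832001 to 87842000 of chromosome 2, 3728 kb from the window. Both siDNAJC9 CENP-A libraries covered 9 of its 10 kb, and so did the siNeg IgG list, while the siDNAJC9 IgG list covered 0 kb. In all, 18 of 44 (40.9%, 95% Wilson interval 27.7 to 55.6) and 14 of 27 (51.9%, 34.0 to 69.3) siNeg flank peaks of replicates 1 and 3 overlapped a peak of either siDNAJC9 library, beside 23.0% and 28.2% in the rest of the autosomes. Between the siNeg replicates, 8 of 44 (18.2%, 9.51 to 32.0) and 8 of 27 (29.6%, 15.9 to 48.5) overlapped in the flanks, and 2.78% and 10.0% in the rest. Apart from the 2p region, all regions shared in the flanks lay close together on 4p. The flank shares therefore rest mostly on that cluster, which the intervals do not take into account. Whether siNeg peaks recur more often in the other flanks than in the rest was not tested.

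Peaks lay on both sides of the 5-Mb limit. The outermost flank peak of siDNAJC9 replicate 1 lay on 4q, from 60242001 to 60251000 of chromosome 4, with its midpoint 4.9925 Mb from the edge, and the first one beyond lay on 17q, from 32682001 to 32691000 of chromosome 17, at 5.0045 Mb. For replicate 3 these were on 3q, from 101629001 to 101634000 of chromosome 3 (4.9905 Mb), and on 17q, from 32680001 to 32691000 of chromosome 17 (5.0035 Mb). The siNeg replicates had their outermost flank peaks at 4.954 and 4.9715 Mb and the first beyond at 5.078 and 5.319 Mb. From 5 to 10 Mb, the siDNAJC9 libraries had 27.3 and 21.2 kb per Mb, between their values in the flanks and in the rest. Across the limit itself, density rose from 27.1 to 32.8 kb per Mb in replicate 1 and from 18.5 to 24.3 kb per Mb in replicate 3, comparing the megabases on either side.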

How the data were processed

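CENP-A and IgG CUT&RUN peak lists from siNeg and siDNAJC9 cells were used. According to the methods of the study, the authors trimmed the reads, aligned them with bowtie2 to T2T-CHM13v2.0, removed duplicates with Picard, derived normalization factors from an E. coli spike-in and called broad peaks with GoPeaks. The submitters' processing notes name bcl2fastq and Bowtie. Each deposited list holds a chromosome, start and end for every peak and no height, score or read count, so the unit is a position, no model of reads could be applied and the depth of a library is not in the lists. The headings of the deposited lists show that each was called in a single library against another IgG library of the same siRNA. Whether a place appears in a list therefore depends on that control, on the spike-in scaling and on the calling threshold. The authors' steps did not pool replicates.

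Windows were the middle of tied 5-Mb windows with the greatest length under siNeg CENP-A replicate 1 peaks, and flank peaks had their midpoint within 5 Mb of an edge. Covered lengths were counted on a 1-kb grid. Groups came from the sample titles. Totals were compared by the log2 ratio of means, and flank density by the log2 ratio to the rest of the autosomes, tested by exact two-sided permutation (doubling the smaller tail) of the libraries without siNeg replicate 1. Bins of 5 Mb with at least 2.5 Mb kept entered a fit of log2(kb + 1) in limma 3.58.1 (R 4.3.3), with Benjamini-Hochberg adjustment and a threshold of 0.05. The limma step was tested on simulated data, in which the siNeg library was drawn from the siDNAJC9 means and spread with set changes. Such data lack the sparseness of the real siNeg list, so they do not test the calls made here. Overlap required 1 bp, and shares carry 95% Wilson intervals. Python 3.11.15, numpy 2.4.6, pandas 2.3.3, scipy 1.17.1 and matplotlib 3.10.9 were used.

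The members, the named flanks and the tests were chosen with earlier results of these data known. Named regions were set by rule: the 5 densest and 5 sparsest flanks by mean over the siDNAJC9 CENP-A libraries, the 5 longest regions common to those libraries with at most 1 per flank, the regions common to the siNeg libraries, and the peaks nearest to the window edge and to the 5-Mb limit. All 8 regions common to the siNeg libraries were described, beyond the 5 that the rule sets, and other single flanks were chosen after their values were seen. Genes, repeats and sequence under the peaks were not analysed here. Alternatives varied the window, flank width, minimum width of a peak, peaks shared with IgG, joining of neighbours, left-out stretches, libraries, added constant, scaling and overlap rule.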

Additional observations from a re-analysis of the deposited data

Results flagged for a closer look

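The density of flank peaks relative to the rest of the autosomes moved in opposite directions from equality under the siRNAs: both siNeg CENP-A libraries lay above 0 on the log2 scale (0.77 and 1.99) and both siDNAJC9 CENP-A libraries below it (-0.44 and -0.32). The siDNAJC9 mean minus the siNeg mean was -1.76 with all 4 libraries (exact two-sided permutation p = 0.333, the smallest that 2 against 2 give), a p that assumes exchangeable libraries although siNeg replicate 1 placed the windows. With 10-Mb windows all 4 libraries lay below 0, while the siDNAJC9 IgG list, at -0.25 with 5-Mb windows, came to 0.05.

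The log2 ratio of inner to outer flank density also had siNeg above 0 and siDNAJC9 below it: it was 0.87 and 2.56 in the siNeg CENP-A libraries and -0.25 and -0.10 in the siDNAJC9 CENP-A libraries, a difference of -1.89. This difference was not tested. The siNeg values rest largely on 4p, without which they were 0.03 and 1.20. Both IgG lists lay below 0 on both measures with 5-Mb windows.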

How the results depend on the processing

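Flank length, flank number and the flank-to-rest ratio kept their direction under all 17 alternatives run for each, though the p over libraries could not pass the threshold in any, which says nothing of stability. The log2 ratio for length ran from 2.09 with 3-Mb windows to 6.48 with 10-Mb windows, that for number from 2.55 to 6.20, and the flank-to-rest difference from -4.59 with 3-Mb windows to -0.18 with 10-Mb windows. When single libraries were left out, the log2 ratio for length lay between 3.75 and 4.46, that for number between 3.49 and 4.30, and the flank-to-rest difference between -2.43 and -1.15. The number of flank bins called higher in limma ran from 24 (libraries scaled to the same total) to 36 with no siDNAJC9 library left out. With all 4 CENP-A libraries and 1 left out it was 33 without siNeg replicate 3, 11 without siDNAJC9 replicate 1 and 13 without siDNAJC9 replicate 3, where the lone siDNAJC9 library was assumed to vary like the siNeg pair. The fits without a siDNAJC9 library were chosen after seeing the data, because without it the 3-library comparison has no residual degrees of freedom. Flank bins numbered 36 in each limma fit, or 44 with the satellite stretches kept. The share of them called higher lay below the share of all bins in every fit except that with 10-Mb windows. A high count is therefore not particular to the flanks. The median log2 fold change was 5.73 over flank bins and 6.40 over all bins with 10-Mb windows. After scaling to the same total, these medians were 3.19 and 4.44. With windows from siNeg replicate 3, the median log2 fold change was 3.51 over 36 flank bins and 4.89 over all bins. With the satellite stretches kept, it was 4.90 over 44 flank bins and 6.37 over all bins. The few bins called lower in that setting all lay in the flanks, where most bins were called higher. The inner-to-outer log2 value of siDNAJC9 was -0.18 as the mean of both libraries, -0.42 with windows from siNeg replicate 3 and -0.40 with 10-Mb windows.

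Replicate overlap of the flank peaks of siDNAJC9 replicate 1 was 39.1% with 10-Mb windows and 38.6% with 50% reciprocal overlap. For replicate 3 it was 46.4% with 10-Mb windows, 44.5% with 50% reciprocal overlap and 62.2% with peaks of at least 7 kb. IgG overlap fell to 1.36% and 0.922% in siDNAJC9 replicates 1 and 3 with peaks of at least 7 kb. Each of these moved by more than its counting interval, and the cause was not tested. Flanks of 2.5 Mb were not run for the bins or for the inner-to-outer value.

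The labels do not say whether same-numbered libraries share a day or batch, so the numbers were not taken to pair the libraries. Deviations of same-numbered libraries correlated at 0.0587 over 531 bins. Such a correlation cannot see an offset common to a whole library, so it does not decide on pairing. In the rest of the autosomes, replicate 1 had more sequence under CENP-A peaks than replicate 3 with both siRNAs. With the replicate block and all 4 libraries, the log2 values were 4.01 for length, 3.80 for number and -1.76 for the flank-to-rest difference (exact permutation p = 0.5, the smallest under the block), the same as without it. In limma 27 flank bins were higher with the block and 27 without it, and 500 and 456 of all bins. All 4 libraries include siNeg replicate 1, whose own peaks placed the windows. Depth limits all of these results to what the caller listed, and a flank without peaks says nothing of reads below its threshold.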
